A study of Homo sapiens with 15 samples.

Results

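RUVBL2 peaks of MDA-MB-231 cells were described by how they lie along the autosomes: how far apart neighbours are, which peaks form clusters, and where those clusters sit. All peaks on chromosomes 1 to 22 of the RUVBL2 list were taken, with no selection on score or width. They numbered 105560 of the 109607 peaks of that list, the remaining 4047 lying on chromosomes X and Y, and of 647617 peaks in the 4 peak lists of the series. The series held 15 samples: 5 of chromatin immunoprecipitation with sequencing (ChIP-seq), 8 RNA-seq and 2 ATAC-seq libraries. Of the 5 ChIP-seq samples, 1 was an input. RUVBL2 was precipitated with a commercial antibody, in 1 library, from MDA-MB-231 cells for which the labels give no knockdown or treatment. MDA-MB-231 is an established cell line that was derived from triple-negative breast cancer and carries many chromosome rearrangements, and its copy number was not measured by the peak list. The knockdown libraries were not analysed here.

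RUVBL2 belongs to the AAA+ family of ATPases. With its partner RUVBL1 it forms rings that serve as a scaffold of chromatin remodellers such as INO80, SRCAP and TIP60/p400, which move nucleosomes or exchange the histone variant H2A.Z, and it is also part of a chaperone complex that assembles other protein machines. Remodellers of this kind are known from promoters and enhancers, which often occur in groups along gene-rich chromosomes.

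The peaks were mostly narrow and of low score. Widths ran from 347 to 24620 bp with a median of 868 bp and quartiles of 700 and 1233 bp. The deposited score of each peak, written by the authors' caller in a unit that is not stated, ran from 50 to 3100 with a median of 73.0 and quartiles of 57.95 and 113.0. Width and score rose together (Spearman 0.83 across peaks of 1 library, a description). The peaks covered 117.7 Mb, or 4.21% of the 2795 Mb that lie between the first and the last peak of each autosome, at a mean of 37.8 peaks per Mb. No neighbouring peaks overlapped or abutted. Sequencing depth was unknown, since the list holds no reads. With 1 library there was no replicate, and peaks are not replicates, so every comparison below is a description without a test. Intervals in brackets are 95% Wilson intervals, which take peaks as independent and reflect only counting error.

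Neighbouring RUVBL2 peaks lay closer together than random positions would. Random positions here mean the same peaks, with their widths, placed without overlap anywhere between the outermost peaks of their own chromosome, for which the spread of gaps has an exact formula. The gap, measured from the end of one peak to the start of the next, had a median of 9584 bp over 105538 gaps, against 16266 bp at random. The lower quartile was 2380.25 bp against 6527 bp at random. Gaps of at most 5 kb made up 38824, or 36.8% (36.5 to 37.1), against 19.9% at random, a ratio of 1.85. This ratio was above 1 on each of the 22 autosomes, from 1.44 on chromosome 19 to 2.81 on chromosome 16, and the median gap was below its random value on each of them.

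The excess was steepest at the shortest gaps. In the class up to 50 bp there were 1819 gaps where 239 were expected at random, a ratio of 7.62. The ratio fell to 5.91 between 50 and 100 bp, 4.98 between 100 and 200 bp, 3.79 between 200 and 500 bp and 2.40 between 500 bp and 1 kb. Peaks separated by 1 to 2 kb were still 1.72 times as frequent as at random, and those separated by 2 to 5 kb 1.24 times. In all, 10917 gaps, 10.3%, were of at most 500 bp. Whether such pairs are separate sites or parts of 1 enriched stretch that the caller divided was not tested, and both would look alike in a peak list.

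Gaps of middle length were too few and very long gaps too many. Gaps from 20 to 50 kb, the commonest class, numbered 20119 against 30666 at random (0.66). Above 200 kb there were 1007 gaps against 184.3 at random. Of these, 22 on 19 chromosomes were at least 1 Mb long, from 1.04 to 21.1 Mb and 101.6 Mb together. Long peak-free stretches include centromeres and unassembled sequence, which the random positions could enter. Leaving those 22 stretches out raised the random share of gaps of at most 5 kb only from 19.9% to 20.6%.

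**Figure D1:**
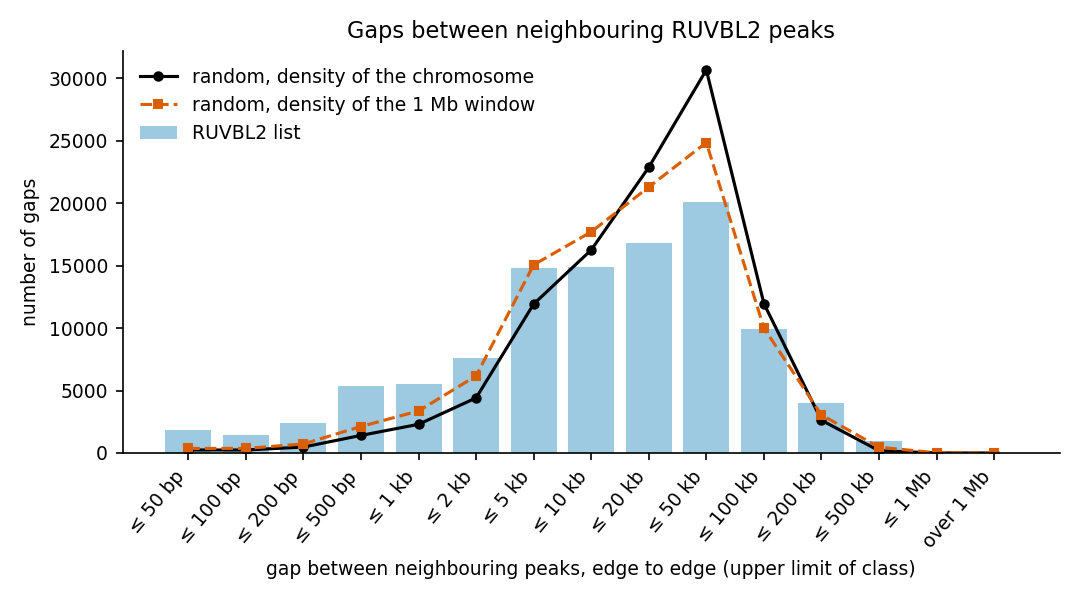
Number of gaps between neighbouring RUVBL2 peaks (bars) in classes of gap length, with the number for random positions at the density of each chromosome (black) and of each 1 Mb window (orange). The bars stand above both lines up to 2 kb and below both from 5 to 50 kb, where the class of 20 to 50 kb holds 20119 gaps against 30666 and 24855.

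Part of the closeness came with broad differences in density along a chromosome. When random positions were given the peak number of each 1 Mb window in place of the chromosome mean, the random share of gaps of at most 5 kb was 26.7%, and the ratio dropped from 1.85 to 1.38. These window densities come from the same peaks. At that density gaps of 2 to 5 kb were no longer in excess (0.99), while those up to 50 bp still were (4.95), as were those of 50 to 100 bp (3.85) and of 200 to 500 bp (2.52).

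Counting all pairs of peaks, not only neighbours, showed both scales. Random positions for these pairs were points without width, which may lie at any distance from each other. Pairs whose centres were 1.5 to 2 kb apart were 2.81 times as frequent as at random, and those 3 to 5 kb apart 1.86 times. From there the ratio fell slowly, to 1.65 between 20 and 50 kb, 1.37 between 200 and 500 kb and 1.13 between 2 and 5 Mb. Pairs of centres 500 bp to 1 kb apart were fewer than at random (0.72). Peaks cannot overlap in this list, and a median peak is 868 bp wide, so few pairs can lie so close. The random points do not have this limit, which also bears on where the ratio is highest.

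**Figure D2:**
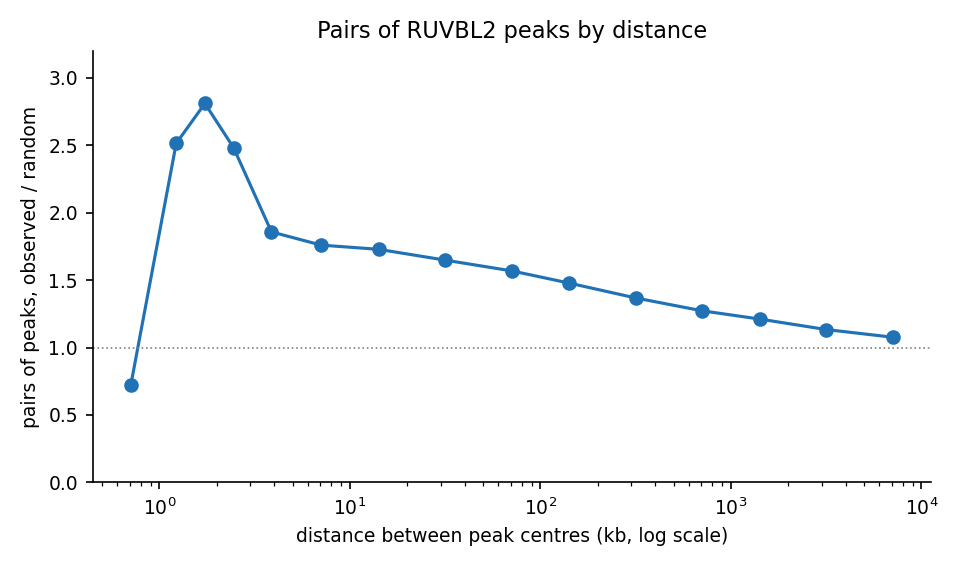
Pairs of RUVBL2 peaks on the same chromosome, as the ratio of observed to random pairs, by the distance between their centres (kb, log scale). Random pairs are of points without width. The ratio peaks at 2.81 between 1.5 and 2 kb, drops to 1.86 by 3 to 5 kb and then declines slowly to 1.08 between 5 and 10 Mb, with the dotted line marking 1.

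After a gap of at most 5 kb the next gap was also of at most 5 kb in 45.9% of 38819 cases, and after a longer gap in 31.5% of 66697. These shares pool regions of unlike density: such gaps made up 20.9% of gaps on chromosome 13 and 62.2% on chromosome 19. Pooling alone makes the 2 shares differ, and no random value was computed for them. No order of gaps beyond density is therefore read from them. Scores of neighbours resembled each other little at any distance: their Spearman correlation was 0.14 for 10917 pairs up to 500 bp apart and 0.07 for 5011 pairs over 100 kb apart. The corresponding values for width were 0.19 and 0.09. Strong peaks were thus not regularly next to strong ones. Both members of a pair come from the same library and caller.

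Clusters were defined as runs of at least 2 peaks in which each gap to the next peak is at most 5 kb. More than 1 peak in 2 belonged to one. There were 21014 clusters, which held 59838 peaks, 56.7% of all (56.4 to 57.0), while 45722 peaks were single. Random positions would put 35.3% of peaks in clusters at the density of each chromosome and 43.5% at the density of each 1 Mb window. The number of clusters exceeded the random number less, at 1.29 times 16251, since the clusters were larger, with a mean of 2.85 peaks against 2.29 at random. With gaps of up to 10 kb allowed, the 21325 clusters were fewer than the 22870 of random positions. The limit of 5 kb falls where nothing changes abruptly: 1969 gaps lay between 4500 and 5000 bp and 1855 between 5000 and 5500 bp. Peaks whose nearest neighbour lay just inside the limit had a median width of 839 bp and score of 69.3, and those just outside it 829 bp and 67.7.

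Most clusters were pairs, and the excess over random grew with the number of peaks. Pairs numbered 13181, or 62.7% of clusters, close to the 12753 expected at random at the density of each chromosome and the 12195 at the density of each 1 Mb window. Clusters of 3 peaks numbered 4381 against 2636 and 3269. Those of 5 to 9 peaks numbered 1602 against 244.2 and 921.6. At 10 or more peaks there were 302 clusters, with 4465 peaks (4.23% of all) in 12.8 Mb. Random positions would give 1.87 such clusters at the density of each chromosome but 121.6 at that of each window, so much of this excess lay in windows dense in peaks. The median cluster spanned 4709 bp, 73 spanned over 50 kb and 5 over 100 kb. Together the clusters spanned 136.8 Mb, 4.90% of the autosomal span, and peaks filled 50.7% of that length.

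Clustered peaks were somewhat wider and higher in score than single ones. Their median width was 920 bp (quartiles 728 and 1322) against 811 bp (674 and 1102), a ratio of 1.13. Their median score was 78.4 (quartiles 59.7 and 122.6) against 67.7 (56.4 and 99.35), a difference of 10.7. The score difference was 16.2 when only gaps of at most 2 kb joined peaks, and 5.44 when peaks up to 500 bp apart were merged first, an alternative chosen after seeing the data. The quartile ranges overlapped widely. Both differences had the same direction on all 22 autosomes: the width ratio went from 1.07 on chromosome 22 to 1.30 on chromosome 13, and the score difference from 2.48 on chromosome 22 to 22.7 on chromosome 13. They were also present in each of 10 groups of peaks with similar numbers per 1 Mb, with width ratios of 1.05 to 1.29 and score differences of 5.75 to 26.4. The largest values were in the sparsest windows, where clustered peaks had a median width of 987 bp and a median score of 92.7 against 763 bp and 66.3.

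Width and score varied with the gap to the nearest peak, without a step at 5 kb. Peaks with a neighbour within 50 bp had a median width of 1122 bp and a median score of 103.4. Both medians fell with the gap to the nearest peak, to 1018 bp and 89.7 at 200 to 500 bp, 879 bp and 74.2 at 1 to 2 kb, and 841 bp and 69.5 at 2 to 5 kb. Beyond 5 kb the score hardly moved, with 68.2 at 5 to 10 kb and 67.5 at 50 to 100 kb, while the width went on falling slowly from 826 to 784 bp.

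**Figure D3:**
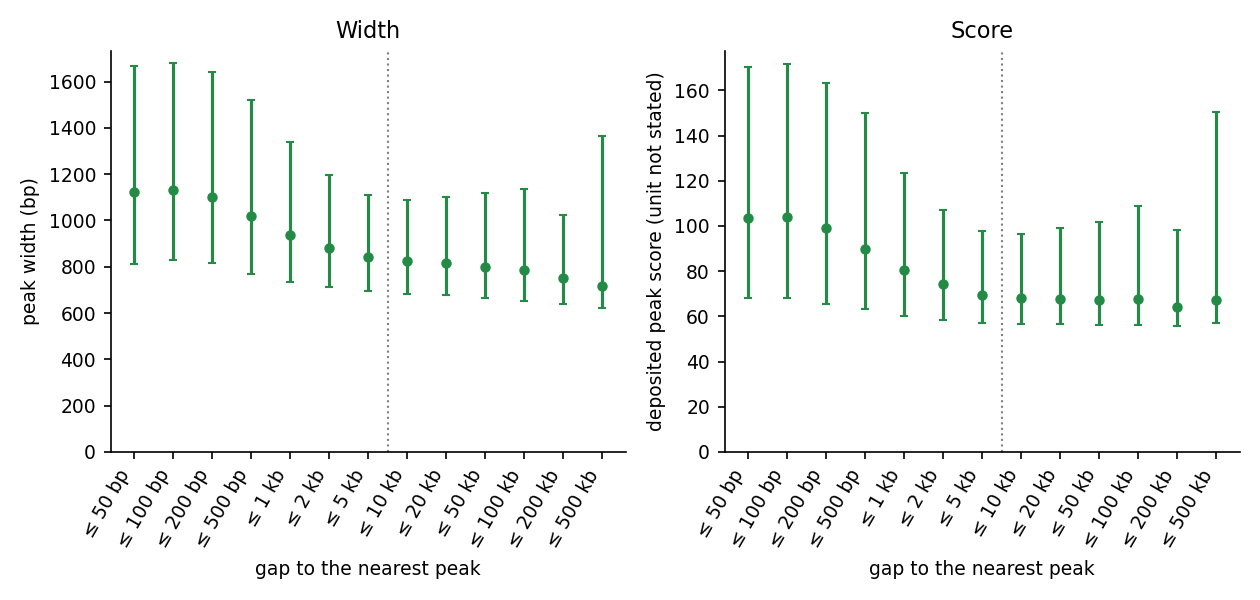
Width (bp, left) and deposited score (right) of RUVBL2 peaks by the gap to their nearest peak, as medians (points) and quartiles (bars), with the dotted line at 5 kb. Medians fall from 1122 bp and a score of 103.4 within 50 bp to 841 bp and 69.5 at 2 to 5 kb, and the score is nearly level beyond.

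The differences in width and in score were nearly absent once the other measure was held level. Among peaks of similar score, in 10 groups of equal size, the width ratio of clustered to single peaks was 1.02 at the median and lay between 0.92 and 1.05. Among peaks of similar width the score difference was 0.94 at the median. In the widest group, over 1925 bp, it was opposite: clustered peaks had a median score of 271.1 and single ones 307.8. The highest score group, over 201.3, likewise had narrower clustered peaks (2438 bp against 2649 bp).

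The share of peaks in clusters rose with score and then turned. It was 48.0% in the lowest of the 10 score groups, 68.5% in the ninth, with scores from 130.7 to 201.3, and 59.2% in the highest. At the density of their own 1 Mb windows random positions would give 41.0%, 44.5% and 37.2% for these 3 groups. The fall in the top group thus came with a lower random share, in windows with a median of 36 peaks against 44 in the ninth. Of the 895 peaks with a score over 500, 42.7% (39.5 to 45.9) were clustered, against 35.1% at random at the density of their windows. Outside the 1 Mb next to long peak-free stretches and to the outermost peaks the clustered share was 39.0% of 798, and inside these zones 73.2% of 97.

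Very wide peaks were the exception. Of 203 peaks over 5 kb, 81.3% (75.4 to 86.0) were clustered, and 111 of them lay in the zones next to long peak-free stretches or chromosome ends. The share was 78.3% for the 92 outside the zones. In the zones as a whole, 63.4% of 3930 peaks were clustered, with a median width of 972.5 bp, against 56.4% of 101630 peaks and 865 bp elsewhere.

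Some of the best-scoring peaks were single, with no other peak within 5 kb. Outside the zones, the 5 best single peaks, in hg19 and counted from 1, were chromosome 8, 86748932 to 86756460 (score 2192, 7529 bp) and 86727362 to 86734972 (2095, 7611 bp), chromosome 4, 68263995 to 68267082 (1597, 3088 bp), chromosome 2, 109815289 to 109816489 (1282, 1201 bp), and chromosome 1, 224199046 to 224204633 (1176, 5588 bp). The nearest peak lay 7257 bp from that on chromosome 1, 11992 and 13959 bp from those on chromosome 8, 29842 bp from that on chromosome 2 and 31993 bp from that on chromosome 4. The 2 on chromosome 8 were neighbours of each other, with 13959 bp between them, so they are not 2 separate isolated places.

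Within clusters, strong peaks had no preferred place. In the 7833 clusters of 3 or more peaks the best-scoring peak was the first or the last in 54.3%, against 54.8% if each place were equally likely. Inner peaks were slightly wider than end peaks, with medians of 956 and 905 bp, and had a median score of 81.4 against 76.4. Large clusters give more of the inner peaks. Median width and score were 1169.5 bp and 98.9 in clusters of 20 or more peaks, against 911 bp and 77.55 in those of 3. Place and cluster size were not told apart here. The best peaks of clusters had a median score of 120.3 and the other clustered peaks 66.8. The best peak was chosen by its score, so the choice fixes the direction of this difference, and nothing is read from it.

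Chromosomes differed widely in the share of clustered peaks, and followed their peak density (Spearman 0.95 over 22 chromosomes of 1 library, a description). The highest shares were on chromosome 19 (80.9%, 79.8 to 81.8), chromosome 20 (68.9%, 67.4 to 70.4) and chromosome 17 (68.4%, 67.1 to 69.6), and the last pair did not differ beyond their intervals. The lowest were on chromosome 13 (36.8%, 34.4 to 39.2), chromosome 16 (41.6%, 39.3 to 44.0) and chromosome 21 (41.7%, 38.7 to 44.7), with chromosome 22 at the same level (41.7%, 38.2 to 45.2). Relative to random positions the order was nearly opposite (Spearman -0.92). Chromosome 16, with 18.5 peaks per Mb, had 2.43 times the random share and chromosome 13, with 16.5 per Mb, 2.38 times, while chromosome 19, with 100.2 per Mb, had 1.20 times. On a dense chromosome the random share is high, here 67.6% for chromosome 19, and leaves less room above it. Every one of the 22 chromosomes exceeded its random share at the density of 1 Mb windows too.

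Chromosome 19 had fewer clusters than random positions would give, but larger ones. It held 1107 clusters against 1450 at random, with 4.32 peaks each against 2.76, and 87 of the 302 clusters of 10 or more peaks. Chromosome 12 followed with 38 such clusters, chromosome 20 with 34, chromosome 6 with 24, chromosome 1 with 21 and chromosome 17 with 20. Chromosomes 13, 15 and 22 had none. Fewer but larger clusters than at random were not particular to chromosome 19. Chromosome 20 had 727 clusters against 735.7 at random, a narrow margin, with 3.53 peaks each against 2.37. Chromosome 17 was about level in number, at 1209 against 1191, with 3.16 peaks each against 2.45.

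**Figure D4:**
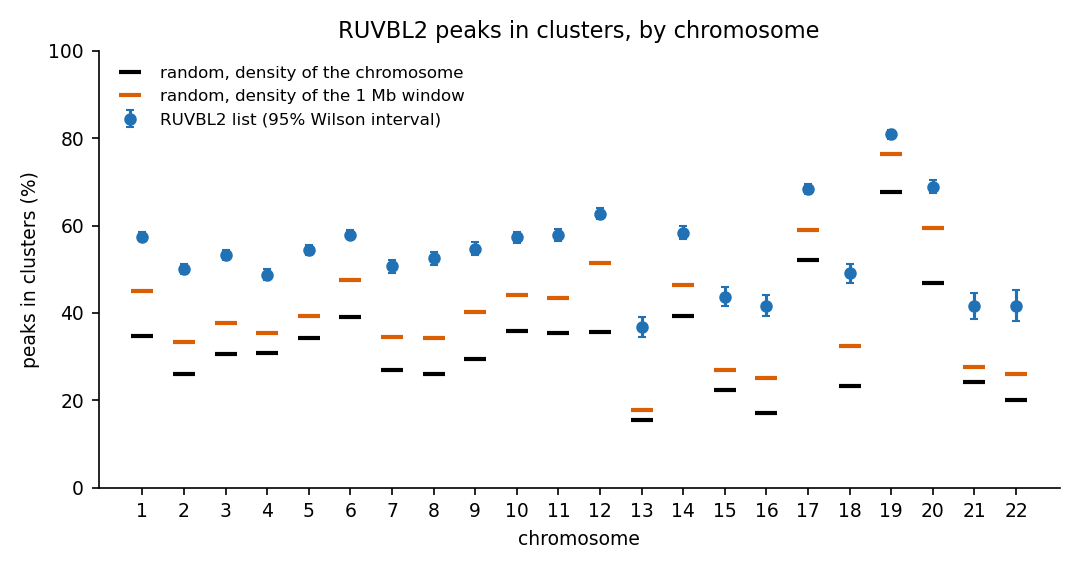
Share of RUVBL2 peaks in clusters on each autosome (blue points, bars are 95% Wilson intervals), with the share for random positions at the density of the chromosome (black) and of each 1 Mb window (orange). The points lie above both marks on all 22 chromosomes, from 36.8% on chromosome 13 to 80.9% on chromosome 19.

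Clusters were found along nearly all of the autosomes, with more of them in some windows than in others. Of 2893 windows of 1 Mb, 2644 (91.4%) held the midpoint of at least 1 cluster, 87 held peaks but no cluster and 162 no peak. The median window held 5 clusters (quartiles 3 and 9) and the fullest 40. The 289 windows with the most clusters, 10% of all, held 6629 clusters, or 31.5% (30.9 to 32.2), and 28.9% of the peaks. Chromosome 17 held 36 of these windows, chromosomes 1 and 19 34 each and chromosome 6 23, and 175 of the 289 lay next to another. These chromosomes differ in length: peaks spanned 249.2 Mb of chromosome 1, 171.0 Mb of chromosome 6 and 81.0 Mb of chromosome 17. On chromosome 19 they spanned 59.0 Mb, so its 34 were out of only 60 windows. The longest run was 14 windows, from 6 to 20 Mb of chromosome 19, with 417 clusters and 2914 peaks. Runs of 6 windows lay at 30 to 36 Mb of chromosome 20 (182 clusters), 45 to 51 Mb (175) and 36 to 42 Mb (158) of chromosome 19, and 61 to 67 Mb of chromosome 11 (160).

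The fullest single window was at 121 to 122 Mb of chromosome 12, with 40 clusters and 165 peaks, 88.5% of them clustered. Next came 35 to 36 Mb of chromosome 14 with 36 clusters. Windows with 35 clusters were 110 to 111 and 112 to 113 Mb of chromosome 12, 7 to 8 Mb of chromosome 19 and 150 to 151 Mb of chromosome 1. Chromosome 12 thus held 4 of the 10 fullest, including 122 to 123 Mb with 34 clusters among 235 peaks. The number of clusters understates the most crowded windows, where clusters merge: 17 to 18 Mb of chromosome 19 held 253 peaks, 98.4% of them clustered, in 33 clusters.

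The denser a window, the nearer its clustering came to random. In the 107 windows with 1 to 9 peaks, 26.3% of peaks were clustered against 7.16% at random at the window's own density. With 20 to 39 peaks it was 43.6% against 26.6%, with 80 to 159 peaks 76.9% against 69.5%, and in the 27 windows with 160 or more peaks 93.0% against 92.9%. A random share that high leaves little room above it. The closest spacing also came nearer to random, from 20.4 times the random share at 1 to 9 peaks to 1.52 times at 160 or more. Gaps of at most 500 bp made up between 7.54% and 10.6% of gaps in all window groups below 160 peaks, while the random share rose from 0.37% to 5.89%. At 160 or more peaks their share was 19.9% against 13.1% at random. Below 160 peaks the raw share of these gaps thus changed little, while the random share changed many times over. The random share takes the full 1 Mb of a window as open to peaks. In a window that reaches into a long peak-free stretch or past the outermost peak it is therefore too low. Such windows were not set apart, and how far they raise the ratios of the sparse groups was not tested.

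Windows with like numbers of peaks differed in how these were laid out. Among 901 windows with 30 to 50 peaks the clustered share had a median of 48.7% and quartiles of 40.5% and 56.8%. The lowest was 6.67% at 112 to 113 Mb of chromosome 2, where 2 of 30 peaks were clustered. The highest was 93.3%, at 35 to 36 Mb of chromosome 16, where 28 of 30 peaks lay in 4 clusters and 20 of them in a single one, and at 27 to 28 Mb of chromosome 19, where 28 of 30 lay in 5 clusters. Median scores of these last windows were 115.2 and 138.4, against 58.2 in the window on chromosome 2. Windows that reach into long peak-free stretches were not set apart in this comparison. In such a window the peaks share less than the full length, which alone brings them closer together. Whether this holds for the windows with the highest shares was not tested, so their layout and scores are given as a description only.

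The largest cluster lay on chromosome 6, from 73979507 to 74195781 in hg19, and strung 57 peaks over 216.3 kb. Its gaps ran from 23 to 4782 bp with a median of 1548.5 bp, its peaks had a median width of 1620 bp and a median score of 114.4, and they filled 52.9% of the span. The best peak, 74162340 to 74165739, had a score of 502.8. Its flanks were unequal, with 15 peaks within 200 kb before it and 39 within 200 kb after it. A further cluster of chromosome 6, from 42680157 to 42832296, held 45 peaks in 152.1 kb with a median width of 1660 bp, and its best peak (42696021 to 42701779) had a score of 584.9. It had dense flanks on both sides, with 34 peaks within 200 kb before and 38 after. The median widths of both clusters, 1620 and 1660 bp, stood well above the 868 bp of all peaks.

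Chromosome 19 held 7 of the 10 clusters with the most peaks. The largest of these, from 16740500 to 16872735, held 46 peaks in 132.2 kb, with a median gap of 730 bp, 17 gaps of at most 500 bp and a best score of 473.4. The next, from 10279470 to 10393973, held 39 peaks in 114.5 kb, with a median gap of 1206 bp. The other 5 held 31 to 34 peaks in 79.7 to 98.4 kb, starting at 8216936, 9168817, 10680689, 13011348 and 14679331. The last of the 10 was on chromosome 20, from 52244789 to 52337758, with 31 peaks in 93.0 kb. Of these 10 clusters, 0 reached into the zones next to peak-free stretches or chromosome ends. Their median scores, 90.15 to 118.6, lay above the 73.0 of all peaks. The best peaks had scores of 246.0 to 584.9, and weakest peaks in all 10 scored between 50.3 and 58.2, near the minimum of the list.

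**Figure D5:**
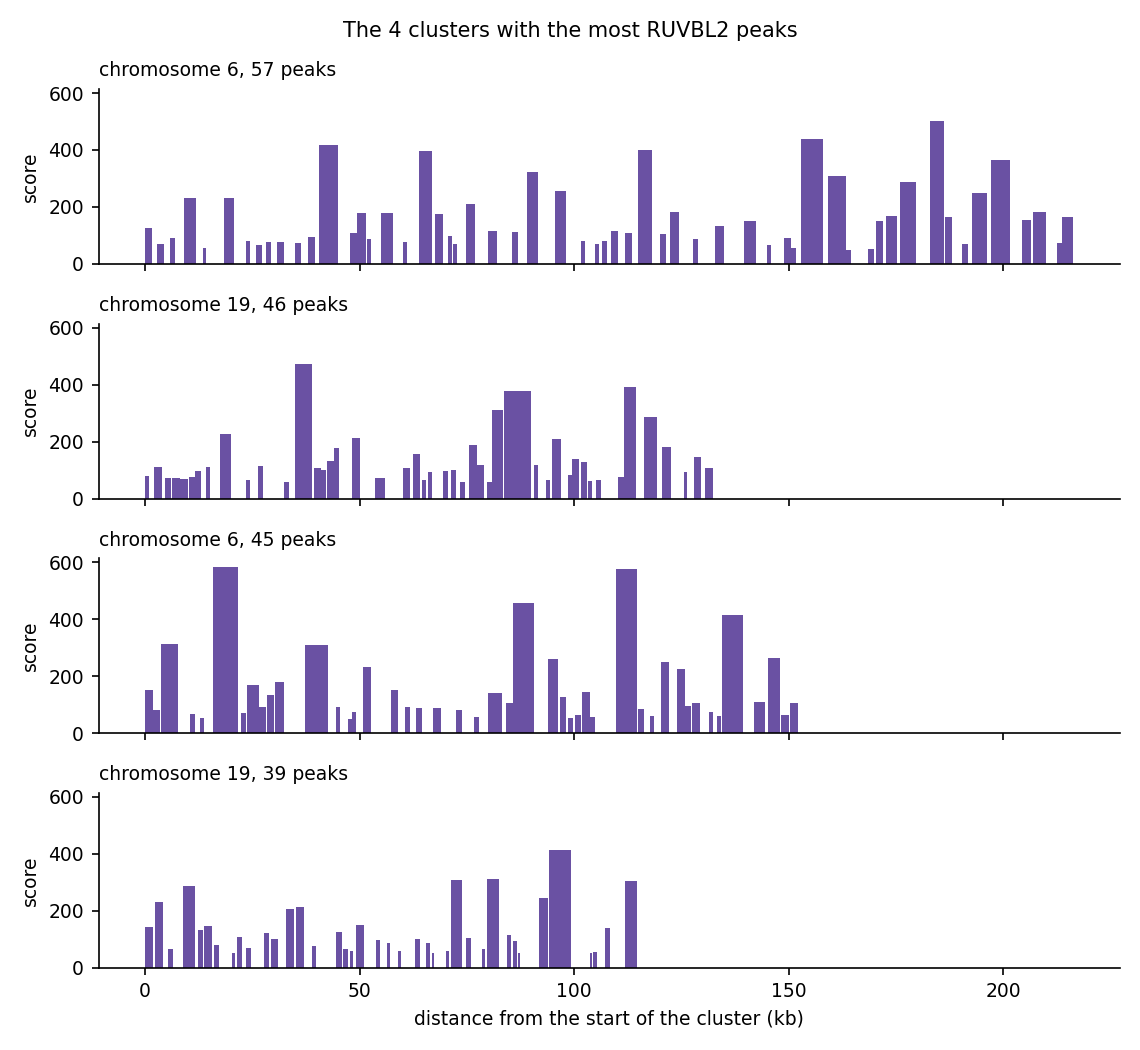
The 4 clusters with the most peaks, each drawn from its own start (kb) with a bar per peak, whose width is the peak's width and whose height is its deposited score. Each stretch holds a few high bars and runs of low ones, with the best scores at 502.8, 473.4, 584.9 and 414.1 from the top panel down.

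The fourth longest cluster was filled more densely. It lay on chromosome 7 from 57935417 to 58054473 and ended at a stretch of several Mb without peaks. Its 16 peaks had a median width of 5691 bp, up to 16000 bp, a median gap of 404 bp, and filled 91.1% of 119.1 kb. In the 10 clusters with the most peaks 42.4% to 60.4% was filled.

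The clusters with the best single peaks, away from such zones, held 2 to 10 peaks. This is the usual size, since only 302 of all 21014 clusters held 10 or more. On chromosome 5, from 126095732 to 126113837, 7 peaks had a median width of 953 bp, and the best of them, 126112885 to 126113837 at the end of the cluster, had a score of 1293 where the median of the cluster was 115.6. On chromosome 2, from 132956214 to 133008088, 8 peaks with a median width of 4030 bp filled 79.6% of 51.9 kb, with a best score of 1181. Pairs on chromosome 8 (86560268 to 86566678, best score 1151) and chromosome 1 (149027788 to 149036355, best score 967.1) came next. After the pair on chromosome 8 the next peak, 160683 bp on, was the single peak from 86727362 named above. The last was a run of 10 peaks on chromosome 6, from 41936062 to 41973990, with a best score of 922.1, a median gap of 313 bp and 80.0% of its 37.9 kb filled. These 5 combined 1 very high peak with neighbours whose lowest scores were between 50.9 and 103.7.

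Genes at these positions are not named, because no annotation of hg19 was used here.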

How the data were processed

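Chromatin of MDA-MB-231 cells was sonicated and precipitated with an antibody to RUVBL2, per the labels' protocols. The authors deposited 1 peak list for this library, whose peak names carry the prefix of the caller MACS. No version or setting of MACS is given in the sources used here. For build and tools, hg19, Bowtie and TopHat stand in the submitters' processing notes, without versions or roles. Per the file headers the list is called multilocus, a term left unexplained, and no input is named there. The series holds 1 ChIP input, and whether it was used for this list is not stated in the headers. The deposited score is the authors' own and was used only within this list.

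Positions were counted from 1. Gaps, clusters and windows were computed for 22 autosomes in Python 3.11.15 (pandas 2.3.3, numpy 2.4.6, scipy 1.17.1, figures by matplotlib 3.10.9). For random positions, a gap exceeds g with probability (1 - g/F) to the power of the number of moved peaks, where F is the length free of peaks. For pairs of peaks and for distances between peak centres, random positions were instead points without width between the outermost centres. At the density of 1 Mb windows each gap was taken as independent, with the number of peaks in its window. All of the 1 Mb outside peaks counted as open, also in windows that reach into long peak-free stretches. The formula was checked on simulated data, and no value given here comes from drawn positions. The members, the gap limit of 5 kb and the comparisons were chosen with earlier results of these data known. Regions named were the 10 clusters with the most peaks, the 5 longest, the 5 with the highest peak score and the 5 best single peaks, the last 2 sets over 1 Mb from long peak-free stretches (at least 1 Mb) and from outermost peaks, the 10 windows with the most clusters and the extreme chromosomes, with part of the windows given. The runs of windows, windows with 30 to 50 peaks, score and width limits (500, 5 kb) and flanks of 200 kb were added after the values were seen. Of 15 samples, 4 had a peak list. Only the RUVBL2 list was analysed, and the other lists served only for the total number of peaks. The remaining 11 samples were not used.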

Additional observations from a re-analysis of the deposited data

How the results depend on the processing

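Of 54 alternative values, 15 stayed within the 95% interval of the value reported or, for counts, within 1.5 times of it. The ratio of gaps, the width ratio and the score difference kept their direction under the alternatives tried. The number of clusters did not: above random at 5 kb (21014 against 16251), it was below random at 10 kb (21325 against 22870). The ratio of gaps of at most 5 kb to random (1.85) was 2.65 for gaps of at most 2 kb, 1.44 for 10 kb, 2.59 for the upper 50% of peaks by score, 1.71 between peak centres, 1.77 without the zones near peak-free stretches and outermost peaks, 1.91 without chromosome 19, 1.38 at the density of each 1 Mb window and 1.79 with long peak-free stretches left out. In the same order, the share of peaks in clusters was 38.9% (2 kb), 71.1% (10 kb), 45.8% (upper 50%), 51.7% (centres) and 55.3% (without chromosome 19). The number of clusters moved by over 1.5 times only for the upper 50% of peaks (9585). The width ratio was 1.18 (2 kb), 1.12 (10 kb), 1.09 (upper 50%), 1.12 (centres) and 1.02 as the median over 10 score groups. The score difference was 16.2 (2 kb), 8.45 (10 kb), 9.99 (upper 50%), 9.92 (centres) and 0.94 as the median over 10 width groups. The range of clustered shares over chromosomes, 44.1 percentage points, was 35.5 for 2 kb and 32.1 without chromosome 19. The share of clusters in the fullest 10% of windows was 36.7% (2 kb), 23.9% (10 kb), 37.1% (upper 50%), 33.9% (centres), 32.4% (without the zones), 30.9% (without chromosome 19) and 26.1% (windows of 5 Mb).

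Merging peaks up to 500 bp apart, chosen after seeing the data, gave a gap ratio of 1.64, a clustered share of 46.7%, a width ratio of 1.08, a score difference of 5.44, a range of 52.7 percentage points and 36.8% of clusters in the fullest windows. The limits are those of 1 library: peak numbers set the precision, depth is unknown, and no spread between cultures can be given. No paired analysis was possible because the RUVBL2 list is a single library and no result comes from a test.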
